A study of Homo sapiens with 10 samples.

Results

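The miR-106b-25 cluster comprises 3 microRNA hairpins, MIR106B, MIR93 and MIR25, that lie together in an intron of MCM7, the gene of a subunit of the replicative DNA helicase. The 4 mature miRNAs hsa-miR-106b-5p, hsa-miR-106b-3p, hsa-miR-93-5p and hsa-miR-25-3p were taken by name from a table of 2576 mature miRNAs (1196 with at least 1 read). All 4 were found, each in 1 row, and all 4 passed the filter on low values used for testing (2 or more libraries with a value of 1 or more, 889 miRNAs). The remaining arms of the same hairpins, hsa-miR-93-3p and hsa-miR-25-5p, are described beside them. Members were a list of names from this locus. No measured value entered the rule, but earlier results of these data were known when it was set.

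Small RNA was sequenced in 10 libraries from ES-2, an established line from a human ovarian cancer. The groups were control siRNAs (siC, 2 libraries) and siRNA pools against IGF2BP1 (siIGF2BP1, 2 libraries), IGF2BP2 (siIGF2BP2, 3 libraries) and IGF2BP3 (siIGF2BP3, 3 libraries). The IGF2BP genes encode paralogous RNA-binding proteins that associate with mRNAs. The groups share the cell line and its medium, and the labels call the cells parental in every group. The mRNAs targeted by the siRNAs and the MCM7 mRNA are not measured by small RNA libraries, so neither knockdown nor host gene level was checked here. Whether libraries within a group stem from separate cultures is not stated. The p-values below therefore reflect spread among libraries, which may be technical.

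A miRNA hairpin is cut from a longer transcript by Drosha and then by Dicer, and 1 or both arms of the remaining duplex enter an Argonaute protein. The loaded miRNA pairs with target mRNAs mainly through its seed, bases 2 to 8 from the 5′ end, and lowers their translation and stability. The miR-106b-25 cluster is a paralog of the miR-17-92 cluster and is known for targets in cell cycle arrest and apoptosis, among them CDKN1A and BCL2L11.

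The mature sequences show how the cluster divides into seed families, and the seed is in capitals in each. They are given 5′ to 3′ as RefSeq lists them for GRCh38.p14, in which 2262 of the 2576 names were found, including all 6 arms.
miR-106b-5p: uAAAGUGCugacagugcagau
miR-93-5p: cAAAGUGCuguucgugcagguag
miR-106b-3p: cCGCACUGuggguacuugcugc
miR-25-3p: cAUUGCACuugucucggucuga
miR-93-3p: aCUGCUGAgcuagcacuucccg
miR-25-5p: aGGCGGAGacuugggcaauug

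miR-106b-5p and miR-93-5p share the seed AAAGUGC and had the same base at 16 of 21 positions compared from the first base without gaps. miR-25-3p carries a different seed, AUUGCAC. The seeds of miR-106b-3p, miR-93-3p and miR-25-5p were each held by 1 miRNA among the names matched. The cluster thus holds members of 2 seed families that recur in other clusters and 3 arms with a seed of their own.

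The hairpins show which arms were counted, and their mature arms are in capitals. On GRCh38.p14, all 3 hairpins lie on the minus strand of chromosome 7 in a span of 515 bases. GENCODE 29 places them in intron 13 of an MCM7 transcript with 15 exons, on the strand of MCM7. The mature arms of MIR93 occupy chr7:100093815-100093837 (miR-93-5p) and chr7:100093777-100093798 (miR-93-3p). The authors placed reads on hg19 and their table holds no coordinates, so these positions belong to the printed sequences only.
MIR106B, chr7:100093993-100094074: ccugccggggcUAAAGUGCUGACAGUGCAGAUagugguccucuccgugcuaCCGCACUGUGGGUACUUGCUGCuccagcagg
MIR25, chr7:100093560-100093643: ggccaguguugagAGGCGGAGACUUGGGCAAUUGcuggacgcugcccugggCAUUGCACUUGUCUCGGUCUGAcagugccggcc

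Recovered depth was 462724 to 1269743 miRNA reads per library. The libraries fell into sets by source name, with siC and siIGF2BP1 under one name and siIGF2BP2 and siIGF2BP3 under another. miR-143-3p, a miRNA of smooth muscle and fibroblasts, had normalised counts of 579 to 1548 in the first set and 3.55 to 11.5 in the second. Hence siIGF2BP1 was compared with siC, and siIGF2BP2 with siIGF2BP3, within a set, while in the other comparisons set and siRNA cannot be told apart. Of other-cell miRNA lists, 5 to 6 of 7 blood cell miRNAs had reads in siC and siIGF2BP1 libraries (0.0439% to 0.118% of reads) and 2 to 4 in siIGF2BP2 and siIGF2BP3 libraries (0.0440% to 0.163%). miR-144-3p, an erythroid miRNA, had 0 reads in every library of the second set. miR-451a of the same list had at most 2.38 normalised reads there and at least 7.23 in the first set. miR-142-5p, the most abundant of this list, overlapped between sets, with 375 to 452 in the first and 410 to 1313 in the second. Epithelial miRNAs of the miR-200 kind had reads for 0 to 3 of 7 names, at most 0.00121% of a library. Fibroblast and smooth muscle miRNAs made up 0.331% to 0.517%, and muscle, liver and neural miRNAs 0.0105% to 0.0449%. Unlike miR-143-3p, the more abundant miR-199a-3p overlapped between sets, with 2278 to 2969 normalised reads in the first and 2770 to 3424 in the second. Of the last list, the liver miRNA miR-122-5p had 0 reads in each library. miR-124-3p had 16.9 to 48.5 normalised reads in the first set and 0 in the second. miR-9-5p overlapped, with 87.8 to 384 in the first set and 102 to 187 in the second. The part of these miRNAs in the results was not tested.

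miR-25-3p and miR-93-5p had the most reads among the members of the cluster. Normalised read counts of miR-25-3p, whose known targets include the pro-apoptotic BCL2L11, were 4836 and 4955 in siC C2 and C3. They were 5541 and 6938 in siIGF2BP1, 4607, 3599 and 3987 in siIGF2BP2, and 5476, 6352 and 6103 in siIGF2BP3. The siIGF2BP2 libraries held the 3 lowest values, below both controls, and the siIGF2BP1 and siIGF2BP3 libraries lay above both controls. The siC mean was 4895 ± 83.8 (SD, n = 2) and the siIGF2BP1 mean 6239.5 ± 988 (SD, n = 2). The mean was 4064 ± 508 (SD, n = 3) with siIGF2BP2 and 5977 ± 452 (SD, n = 3) with siIGF2BP3.

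miR-93-5p, which shares its seed with miR-17-5p of the paralogous cluster, had 3206 and 3448 normalised reads in siC. Its values were 3025 and 3414 in siIGF2BP1, 3121, 2809 and 3410 in siIGF2BP2, and 4358, 4588 and 3707 in siIGF2BP3. The 3 siIGF2BP3 libraries were the 3 highest, and the other groups overlapped one another. The siC mean was 3327 ± 171 (SD, n = 2) and the siIGF2BP1 mean 3219 ± 275 (SD, n = 2). The mean was 3113 ± 301 (SD, n = 3) with siIGF2BP2 and 4218 ± 457 (SD, n = 3) with siIGF2BP3.

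miR-106b-3p was next, with 323 and 367 normalised reads in siC and 362 and 412 in siIGF2BP1. siIGF2BP2 libraries had 463, 372 and 363, and siIGF2BP3 libraries had 479, 523 and 455. All 3 siIGF2BP3 values lay above both controls, and siIGF2BP2 replicate 1 lay among them. The siC mean was 345 ± 31.1 (SD, n = 2) and the siIGF2BP1 mean 387 ± 35.5 (SD, n = 2). The mean was 399 ± 55.2 (SD, n = 3) with siIGF2BP2 and 486 ± 34.3 (SD, n = 3) with siIGF2BP3.

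miR-106b-5p, the arm that gives the hairpin its seed family, was the least abundant member. It had 143 and 190 normalised reads in siC and 178 and 172 in siIGF2BP1. It had 122, 197 and 159 in siIGF2BP2 and 174, 200 and 232 in siIGF2BP3. The groups overlapped in every comparison. These values rest on 86 to 222 reads per library, against 195 to 467 for miR-106b-3p, 1471 to 3878 for miR-93-5p and 1885 to 7871 for miR-25-3p. Counting error is therefore widest for miR-106b-5p, and intervals on shares cover counting error only.

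**Figure D1:**
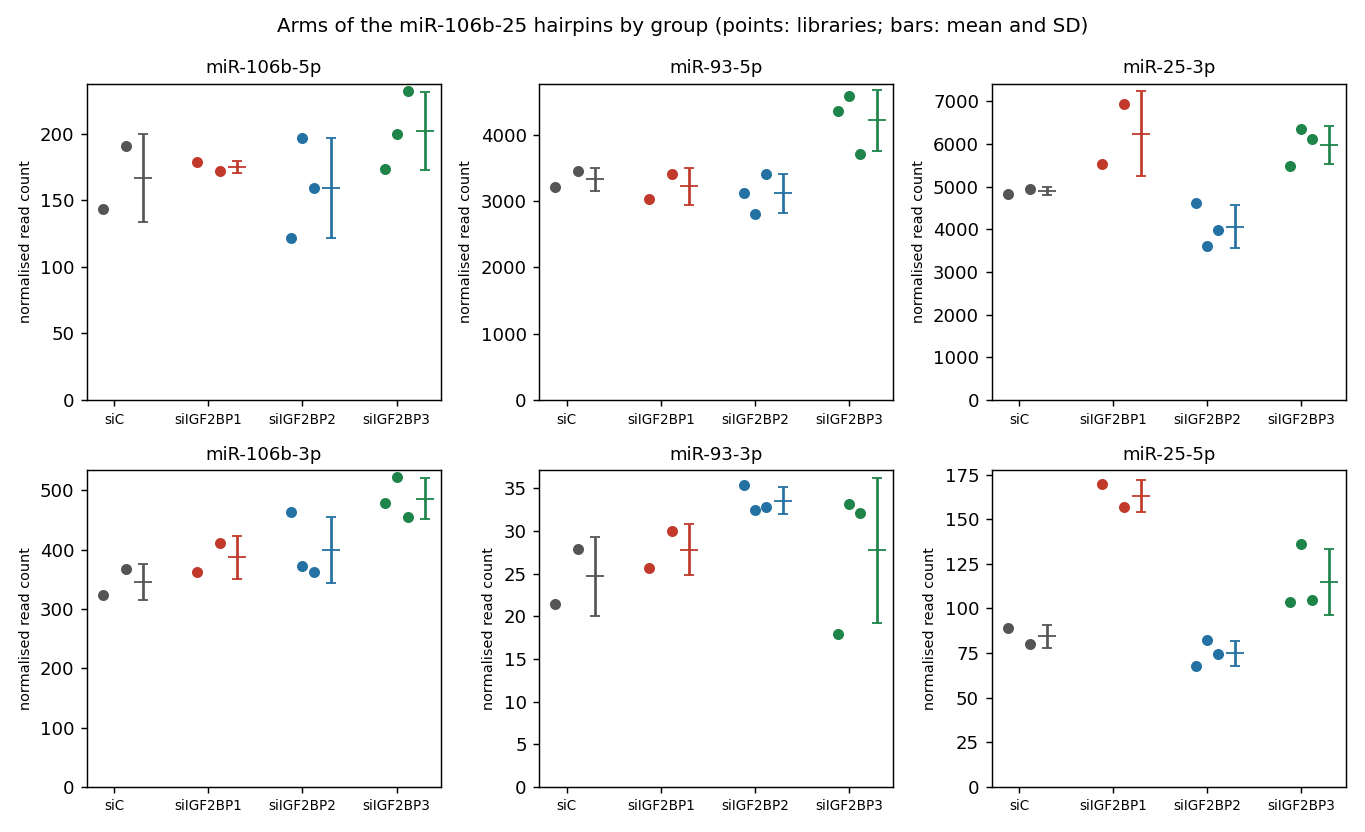
Normalised read counts (vertical axis, from 0, one scale per panel) of the 6 arms of the miR-106b-25 hairpins by siRNA group; points are libraries, bars are the group mean and SD. miR-25-3p is lowest in the 3 siIGF2BP2 libraries, and the siIGF2BP1 libraries stand highest for miR-25-5p at 170 and 157.

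The order of the members was the same in 10 of 10 libraries, with miR-25-3p first, then miR-93-5p, miR-106b-3p and miR-106b-5p. Arms are compared here as reads, without a length scale, since mature arms are 21 to 23 bases long. miR-25-3p ranked 21st to 34th among the miRNAs of a library and miR-93-5p 32nd to 39th. miR-106b-3p ranked 78th to 97th and miR-106b-5p 104th to 127th. The ratio of miR-25-3p to miR-93-5p ranged from 1.17 to 2.03, and that of miR-93-5p to miR-106b-5p from 14.3 to 25.7. Among the members, miR-106b-5p thus had the fewest reads in every library, although its hairpin lies in the same intron as the others. Whether read counts of different sequences follow their amounts in the cell was not tested, here or for the arm ratios below.

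The arm named 3p of MIR106B outnumbered the 5p arm in 10 of 10 libraries. The ratio of miR-106b-3p to miR-106b-5p was 2.25 and 1.93 in siC, 2.03 and 2.39 in siIGF2BP1, 3.80, 1.89 and 2.28 in siIGF2BP2, and 2.76, 2.62 and 1.96 in siIGF2BP3. siIGF2BP2 replicate 1 was highest and siIGF2BP2 replicate 2 lowest, so that 1 group spanned the whole range. The other hairpins were more one-sided. miR-25-3p exceeded miR-25-5p by 32.7 to 67.8 times, and miR-93-5p exceeded miR-93-3p by 86.5 to 243 times, the latter on 9 to 34 reads of miR-93-3p.

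The members varied within narrow limits across the 10 libraries. The highest value divided by the lowest was 1.91 for miR-106b-5p, 1.62 for miR-106b-3p, 1.63 for miR-93-5p and 1.93 for miR-25-3p. For miR-93-3p it was 1.97 and for miR-25-5p 2.50. All miRNAs of a library share its depth and scaling, so Pearson's r of log2(value + 1) over 10 libraries is a description only. It was 0.72 between miR-106b-3p and miR-93-5p and 0.58 between miR-93-5p and miR-25-3p. Between the arms of MIR25 it was 0.77. It was 0.21 between both arms of MIR106B, which are cut from the same hairpin.

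siIGF2BP2 and siIGF2BP3, compared within a set of libraries, ask whether the paralogs leave the cluster at different levels. miR-25-3p fell in siIGF2BP2 relative to siIGF2BP3, with a log2 fold change of −0.56 ± 0.11 (SE), a 95% interval of −0.81 to −0.31 and an adjusted p of 0.0172 (limma on log2(value + 1), Benjamini-Hochberg over 889 miRNAs). It was lower in 3 of 3 siIGF2BP2 libraries than in any siIGF2BP3 library. This was 1 of 4 members called, all tested miRNAs being called at 3.15% (lower at 1.46%). Calls over all miRNAs were 15 higher and 13 lower, and 5 and 12 under upper quartile scaling. miR-93-5p, also without overlap between groups, had −0.44 ± 0.11 and an adjusted p of 0.0514, just past the threshold of 0.05. miR-106b-3p had −0.29 with a 95% interval of −0.58 to 0.00 and miR-106b-5p −0.36 with an interval of −0.78 to 0.06.

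The 4 members had a median log2 fold change of −0.40 in siIGF2BP2 against siIGF2BP3, where the median of all tested miRNAs was 0. For miRNAs with a mean of 10 or more it was −0.04. Groups did not overlap for 2 of 4 members, both lower, against 7.99% of all tested miRNAs lower without overlap. edgeR's quasi-likelihood test on recovered reads called 2 members lower, miR-25-3p (−0.51, adjusted p = 0.0134) and miR-93-5p (−0.39, adjusted p = 0.0432), while calling 11.9% of its miRNAs. DESeq2 called the same 2 arms, with adjusted p of 0.00111 and 0.0106, and 14.4% of its miRNAs. The miR-25-3p call ended without siIGF2BP2 replicate 2 (−0.48, adjusted p = 0.0850), without siIGF2BP2 replicate 3 (−0.55, adjusted p = 0.0665) and without siIGF2BP3 replicate 2 (−0.52, adjusted p = 0.0688). It also ended in limma without an intensity trend (adjusted p = 0.343) and in a fit to these 2 groups alone (adjusted p = 0.114). miR-93-5p passed in limma without siIGF2BP3 replicate 3 (−0.53, adjusted p = 0.0279). Of the other-cell miRNAs tested, 0 were called here by limma, edgeR or DESeq2, and 2 had an unadjusted limma p under 0.05, miR-9-5p and miR-143-3p.

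siIGF2BP1 against siC, the other comparison within a set, left the 4 members uncalled. limma called 0 of 4 against 2.47% of all tested miRNAs, and 1 of 4 had an unadjusted p under 0.05, against 13.7%. edgeR (12.5% of its miRNAs called) and DESeq2 (11.4%) called 0 members. miR-25-3p was higher in both siIGF2BP1 libraries than in both controls, with a log2 fold change of 0.34 ± 0.14 and a limma adjusted p of 0.273. On recovered reads the difference was 0.091 in edgeR (adjusted p = 0.695) and 0.12 in DESeq2 (adjusted p = 0.715). In limma it was 0.18 without siIGF2BP1 replicate 2 and 0.50 without replicate 1. Of all tested miRNAs, 23.1% were higher without overlap in this comparison of 2 libraries with 2. miR-93-5p had −0.05 with a 95% interval of −0.34 to 0.24, miR-106b-3p 0.16 with −0.20 to 0.52, and miR-106b-5p 0.08 with −0.44 to 0.60. For miR-93-5p, edgeR gave −0.31 (unadjusted p = 0.0436, adjusted p = 0.168) and DESeq2 −0.28 (adjusted p = 0.243). TMM scaling turned the values of miR-106b-3p and miR-106b-5p to −0.042 and −0.12, and moved the calls over all miRNAs from 19 higher and 3 lower to 12 and 13.

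miR-25-5p, the minor arm of MIR25, rose in siIGF2BP1. Its normalised reads were 89.1 and 79.8 in siC and 170 and 157 in siIGF2BP1, with 67.9, 82.1 and 74.2 in siIGF2BP2 and 104, 136 and 105 in siIGF2BP3. Both siIGF2BP1 libraries were above all 8 others. Of all tested miRNAs, 23.1% were higher in siIGF2BP1 without overlap against siC alone, and 26.2% against siIGF2BP2 alone. The share above all 8 was not counted. The miR-25-5p values rest on 43 to 211 reads per library, with 54 and 60 in siC and 211 and 178 in siIGF2BP1. The log2 fold change against siC was 0.94 ± 0.21, with a 95% interval of 0.49 to 1.4 and a limma adjusted p of 0.0322. In the authors' deposited table the same comparison had a log2 fold change of 0.954 and a false discovery rate of 0.00982. The call ended without any 1 of the 4 libraries compared: without siC C2 the value was 1.02 (adjusted p = 0.106), without siC C3 0.87 (adjusted p = 0.129), without siIGF2BP1 replicate 1 0.89 (adjusted p = 0.160) and without replicate 2 0.999 (adjusted p = 0.157). It also ended in a fit to these 2 groups alone (adjusted p = 0.0921) and in limma without trend (adjusted p = 0.173). Under TMM, median of ratios and upper quartile scaling the adjusted p was 0.119, 0.101 and 0.244. DESeq2 gave 0.72 (adjusted p = 0.0733) and edgeR 0.69 (adjusted p = 0.0491).

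For the arms of MIR25 in siIGF2BP1 against siC, limma thus gave 0.94 for the minor arm and 0.34 for the major arm. edgeR gave 0.69 and 0.091, DESeq2 gave 0.72 and 0.12, and the difference between arms was not tested. The ratio of miR-25-3p to miR-25-5p was 54.3 and 62.1 in siC and 32.7 and 44.2 in siIGF2BP1. It was 67.8, 43.8 and 53.7 in siIGF2BP2 and 52.8, 46.7 and 58.3 in siIGF2BP3. The siIGF2BP1 ratios lay below both controls, and siIGF2BP1 replicate 2 overlapped siIGF2BP2. miR-93-3p, the minor arm of MIR93, had 24.7 ± 4.60 (SD, n = 2) normalised reads in siC and 27.8 ± 3.02 (SD, n = 2) in siIGF2BP1, a log2 difference of 0.17 with an interval of −0.55 to 0.90.

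siIGF2BP3 against siC joins libraries of both sets. Each of 4 members had a positive log2 fold change, with a median of 0.31 beside 0 for all tested miRNAs, and none passed. For miRNAs with a mean of 10 or more the median was 0.08. miR-106b-3p had 0.49 ± 0.15 (limma adjusted p = 0.0560), miR-93-5p 0.34 ± 0.12 (0.120), miR-25-3p 0.29 ± 0.13 (0.230) and miR-106b-5p 0.28 ± 0.22 (0.559). limma called 0 of 4 members against 10.6% of all tested miRNAs, and 3 of 4 had an unadjusted p under 0.05, against 20.8%. edgeR (19.1%) and DESeq2 (14%) called 0 members. Under upper quartile scaling 4 of 4 were called, when calls over all miRNAs went from 17 higher and 77 lower to 137 and 66. Groups did not overlap for 3 of 4 members, higher in siIGF2BP3, against 11.2% of all tested miRNAs. miR-93-5p passed without siIGF2BP3 replicate 3 (0.43, adjusted p = 0.0461). In this comparison limma called 2 blood, 1 muscle, liver and neural and 1 fibroblast and smooth muscle miRNAs lower, and the same counts in siIGF2BP2 against siC. In the authors' deposited table miR-106b-3p had a log2 fold change of 0.491, a p-value of 0.00632 and a false discovery rate of 0.184.

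siIGF2BP2 against siC, also across sets, gave no call among the members. miR-25-3p had −0.28 ± 0.13 (limma adjusted p = 0.283), with 3 of 3 libraries below both controls, and 16.1% of all tested miRNAs lay lower without overlap. miR-93-5p had −0.10, miR-106b-5p −0.08 and miR-106b-3p 0.20, with adjusted p of 0.769, 0.925 and 0.595. Upper quartile scaling turned miR-25-3p to 0.21, and the calls over all miRNAs from 11 higher and 69 lower to 94 and 64. limma called 0 of 4 members against 9% of all tested miRNAs, and 0 had an unadjusted p under 0.05, against 17.9%. edgeR (15.5%) and DESeq2 (11.6%) called 0 members.

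Between siIGF2BP1 and the other knockdowns, again across sets, miR-25-3p rose against siIGF2BP2. Its log2 fold change was 0.62 ± 0.13, with a 95% interval of 0.34 to 0.90 and a limma adjusted p of 0.00586, and it was higher in 2 of 2 libraries without overlap, as were 26.2% of all tested miRNAs. This was 1 of 4 members called, all tested miRNAs being called at 13.5% (higher at 11.8%). edgeR called it too (0.42, adjusted p = 0.0258, 25.4% of its miRNAs called), as did DESeq2 (0.45, adjusted p = 0.0191, 11.8%). The limma call ended without siIGF2BP1 replicate 2 (0.45, adjusted p = 0.119), in limma without trend (adjusted p = 0.157) and in a fit to these 2 groups alone (adjusted p = 0.0850). Under rescaling by upper quartile the difference turned to −0.080. miR-25-5p rose in the same comparison (1.12 ± 0.19, adjusted p = 0.00139), and with upper quartile scaling it was 0.43 (adjusted p = 0.220). Of the other-cell lists, 2 blood, 2 muscle, liver and neural and 1 fibroblast and smooth muscle miRNAs were called higher by limma in this comparison. The same upper quartile scaling moved the calls over all miRNAs from 105 higher and 15 lower to 66 and 107.

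siIGF2BP1 against siIGF2BP3 called 0 of 4 members in limma, against 14.8% of all tested miRNAs. miR-93-5p had −0.39 ± 0.12 (adjusted p = 0.0532) and miR-106b-3p −0.33 ± 0.15 (adjusted p = 0.185), both lower without overlap, as were 9.45% of all tested miRNAs. These 2 had an unadjusted p under 0.05, against 26.2% of all tested miRNAs. edgeR (37% of its miRNAs called) and DESeq2 (23.8%) called the same 2 arms, with edgeR adjusted p of 0.00625 for miR-93-5p and 0.0198 for miR-106b-3p. limma called miR-93-5p without siIGF2BP3 replicate 3 (−0.48, adjusted p = 0.0178). miR-25-3p had 0.06 with an interval of −0.22 to 0.33, and −0.068 with TMM scaling. limma called 2 blood, 1 muscle, liver and neural and 1 fibroblast and smooth muscle miRNAs higher. Calls over all miRNAs went from 109 higher and 23 lower to 77 and 145 under upper quartile scaling.

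**Figure D2:**
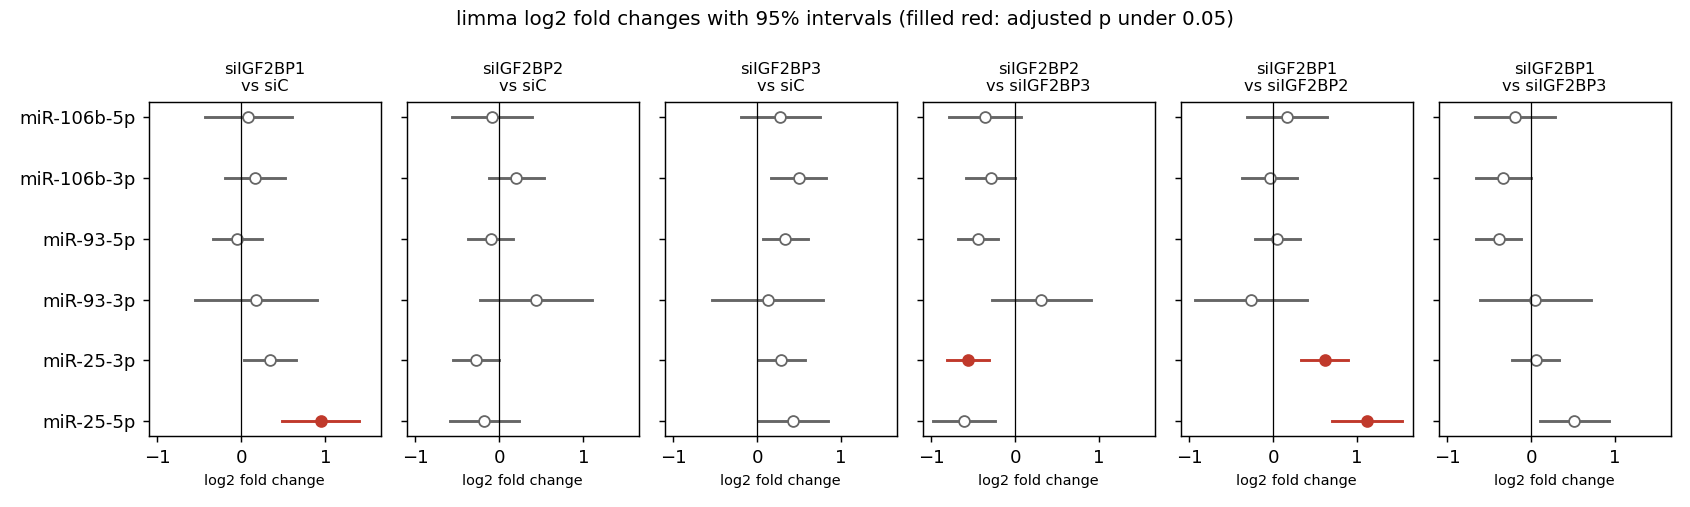
Log2 fold changes (horizontal axis) of the 6 arms in the 6 comparisons, with 95% intervals from limma; filled red points have an adjusted p under 0.05. miR-25-3p is called in siIGF2BP2 against siIGF2BP3 (−0.56) and in siIGF2BP1 against siIGF2BP2 (0.62), and miR-25-5p in siIGF2BP1 against siC (0.94) and against siIGF2BP2 (1.12).

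The 4 members together made up 0.737% to 1.21% of the miRNA reads of a library. Their share was 0.932% and 0.918% in siC, 0.893% and 1.13% in siIGF2BP1, 0.843%, 0.737% and 0.837% in siIGF2BP2, and 1.14%, 1.21% and 1.15% in siIGF2BP3. siIGF2BP2 libraries held the 3 lowest shares and siIGF2BP3 libraries the 3 highest. The siIGF2BP2 mean was 0.806% ± 0.0592 (SD, n = 3) and the siIGF2BP3 mean 1.16% ± 0.0394 (SD, n = 3). They differed by −0.359 percentage points, with p = 0.1 in a two-sided exact permutation test. That is the smallest p which 3 libraries against 3 allow. Against siC (0.925% ± 0.0103, SD, n = 2) the shares of siIGF2BP2 and siIGF2BP3 each gave an exact p of 0.2, the smallest possible with 3 against 2. The share in siIGF2BP1 (1.01% ± 0.169, SD, n = 2) overlapped the controls (exact p = 1, with 0.333 the smallest possible with 2 against 2). The difference of 0.087 points changed sign without siIGF2BP1 replicate 2 (−0.032).

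Proportions within the cluster were compared in the same way. Log2 ratios of miR-106b-3p, miR-93-5p and miR-25-3p to miR-106b-5p were tested in 4 comparisons, which with the shares made 16 exact permutation tests. The lowest p was 0.1 and each Benjamini-Hochberg adjusted p was 1. The log2 ratio of miR-106b-3p to miR-106b-5p averaged 1.06 ± 0.16 (SD, n = 2) in siC and 1.14 ± 0.17 (SD, n = 2) in siIGF2BP1. With siIGF2BP2 it was 1.35 ± 0.52 (SD, n = 3) and with siIGF2BP3 1.27 ± 0.26 (SD, n = 3). The groups overlapped for each of the 3 ratios in each of the 4 comparisons. The ratio of miR-25-3p to miR-93-5p, described after its values were seen and not tested, was 1.83 and 2.03 in siIGF2BP1 and at most 1.65 in the other 8 libraries.

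**Figure D3:**
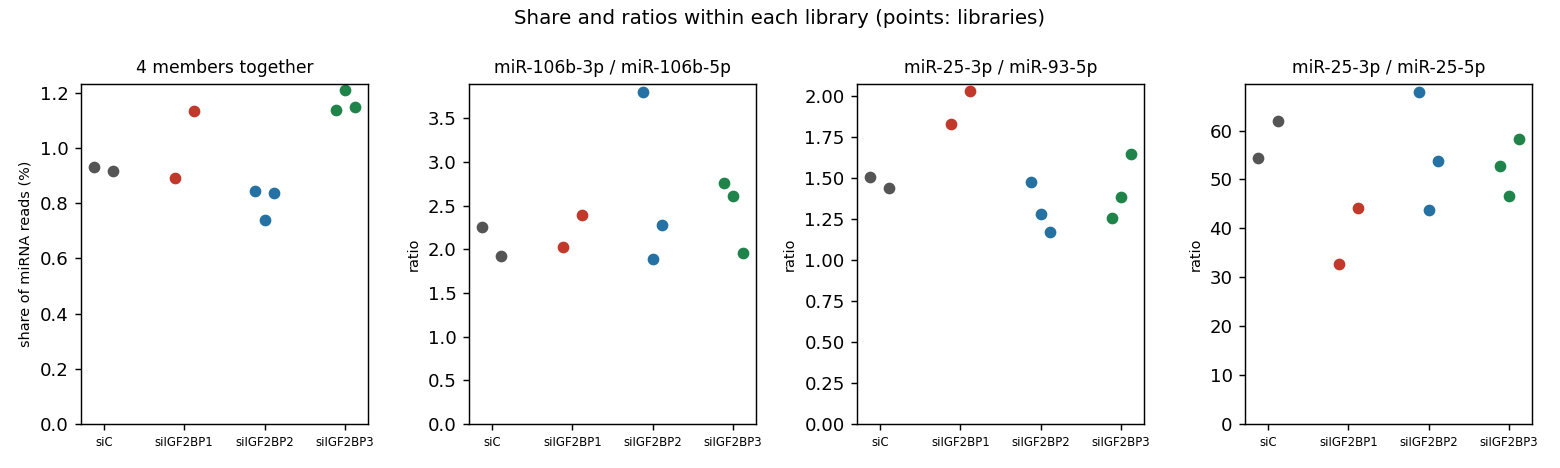
Share of miRNA reads taken by the 4 members (percent) and 3 ratios between arms within each library (vertical axes from 0), by siRNA group; points are libraries. The shares in siIGF2BP3 (1.14% to 1.21%) lie above those in siIGF2BP2 (0.737% to 0.843%), whereas the ratio of miR-106b-3p to miR-106b-5p overlaps between groups.

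The paralogous miR-17-92 cluster, a list of 12 mature miRNAs, made up 7.16% to 9.98% of reads, and 12 of 12 were tested. Its miR-19b-3p and miR-92a-3p each had 2 rows for genomic copies, which were summed. Copies of both also lie in the miR-106a-363 cluster, so their reads cannot be assigned to either cluster. miR-92a-3p gave most of the reads of this list. limma called 0 of 12 in each of the 6 comparisons, against 2.47% to 14.8% of all tested miRNAs. Between 0 and 3 of the 12 had an unadjusted p under 0.05, with 3 in siIGF2BP3 against siC, where 20.8% of all tested miRNAs passed. edgeR called 2 of 9 and DESeq2 2 of 12 in siIGF2BP1 against siIGF2BP3, beside 37% and 23.8% of their miRNAs. DESeq2 also called 1 of 9 in siIGF2BP2 against siIGF2BP3 (14.4%), and both tools called 0 elsewhere. Its median log2 fold change was −0.24 in siIGF2BP2 against siIGF2BP3, where the miR-106b-25 members had −0.40. In siIGF2BP3 against siC the medians were 0.28 and 0.31. These comparisons share the siIGF2BP3 libraries, and the median of all tested miRNAs was 0 in each. For miRNAs with a mean of 10 or more it was −0.04 and 0.08. The list for the miR-106a-363 cluster, which leaves out miR-19b-3p and miR-92a-3p, had reads for 4 of 10 names, at most 0.00217% of a library. From it limma called miR-363-3p, which averaged 9.77 normalised reads in siC and 5.21 in siIGF2BP1 and had 0 in every siIGF2BP2 and siIGF2BP3 library. Its mean of 3.00 lies below the 10 set for naming, and it had 25 reads in the 10 libraries together. It was called in the 4 comparisons across sets, lower in siIGF2BP2 and siIGF2BP3 each time.

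By seed, the cluster supplied most of the AAAGUGC reads and a small part of the AUUGCAC reads. miR-93-5p and miR-106b-5p held 66.0% ± 0.657 (SD, n = 2) of the reads with the AAAGUGC seed in siC and 67.6% ± 3.33 (n = 2) in siIGF2BP1. With siIGF2BP2 they held 63.5% ± 3.44 (n = 3) and with siIGF2BP3 69.6% ± 0.995 (n = 3). The rest came almost wholly from miR-17-5p and miR-20a-5p of the miR-17-92 cluster, with mean normalised counts of 956 and 875. Those paralogs had −0.03 and −0.04 in siIGF2BP2 against siIGF2BP3, where miR-93-5p had −0.44. The difference between paralogs was not tested.

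miR-25-3p shares its seed with miR-92a-3p, which averaged 77256 normalised reads, and miR-92b-3p, which averaged 10183. miR-25-3p held 5.56% ± 0.236 (SD, n = 2) of the AUUGCAC reads in siC and 6.92% ± 0.724 (SD, n = 2) in siIGF2BP1. With siIGF2BP2 it held 4.50% ± 0.274 (SD, n = 3) and with siIGF2BP3 5.98% ± 0.219 (SD, n = 3). Reads with this seed made up 8.48% to 11.5% of a library, mostly those of miR-92a-3p. miR-92a-3p had −0.15 and miR-92b-3p 0.08 in siIGF2BP2 against siIGF2BP3, neither called. How the authors' counting treated reads that match more than 1 family member is not given in the sources used here. miR-25-3p and miR-92a-3p have the same base at 18 of 22 positions.

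**Figure D4:**
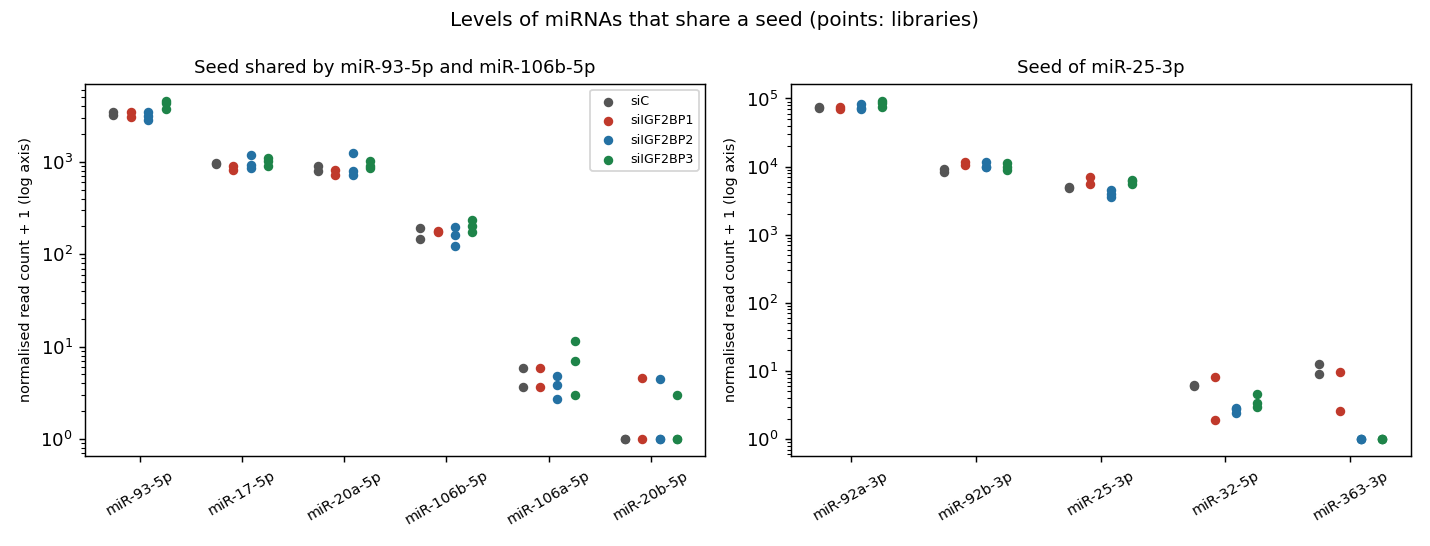
Normalised read count + 1 (log axis) of the miRNAs that share the seed of miR-93-5p and miR-106b-5p (left) and the seed of miR-25-3p (right); points are libraries, colours are siRNA groups. miR-93-5p leads its family, whereas miR-25-3p lies below miR-92a-3p and miR-92b-3p in each library.

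For each member, the 3 miRNAs with the most similar profile over the 10 libraries were named from 307 candidates with a mean of at least 10, by Pearson's r of log2(value + 1) as a description. miR-25-3p was most like miR-3653 (0.87), miR-941 (0.87) and let-7i-5p (0.85). miR-93-5p was most like miR-3615 (0.93), miR-31-5p (0.92) and miR-222-3p (0.88). miR-106b-3p was most like miR-769-5p (0.85), miR-27a-5p (0.85) and miR-199a-3p (0.85), the last also in the fibroblast and smooth muscle list. miR-106b-5p was most like miR-542-3p (0.87), miR-101-3p (0.86) and miR-450b-5p (0.81). Each r named above is among the 3 highest of 307, and so is high by selection. It cannot be set against r between members of the cluster, which was at most 0.72.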

How the data were processed

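Small RNA was sequenced from 10 libraries in 4 groups. Per the submitters' processing notes, tools were cutadapt 1.6, Bowtie2 2.2.4 and featureCounts 1.4.6 with hg19, and edgeR 3.12, with settings and scaling that the sources used here do not give. The deposited table (2794 rows) holds the authors' normalised signal per library. Its values were whole multiples of 1 read (100% within 0.01 reads, 0.803 to 2.00 per read), so whole reads were recovered. The authors' deposited log2 fold changes and p-values are quoted only where named. The control columns, C2 and C3, carry no replicate number because no label ties either to 1 sample. In total 0 columns were left unused. No replicates were alike within counting error (chi-square over its degrees of freedom, 6.80 to 38.7).

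Rows of 1 miRNA were summed. Since values were not counts, limma 3.58.1 (R 4.3.3) with an intensity trend was fitted to log2(value + 1) over 889 miRNAs and 4 groups, with a Benjamini-Hochberg threshold of 0.05. The pseudocount of 1 shrinks fold changes of low miRNAs. edgeR 4.0.16 (335 miRNAs) and DESeq2 1.42.0 were run on recovered reads, and exact permutation tests (two-sided, scipy 1.17.1) compared shares and ratios. The model fits were first tested on simulated data. Members, lists and the rule for named miRNAs (members, other arms, paralogous clusters and seed families with a mean of at least 10, and the 3 most alike) were chosen with earlier results of these data known. Alternatives were pseudocounts of 0.1 and 5, scalings, filters, tools, separate genomic copies, left-out libraries and a replicate block. An unblocked fit to the same libraries was chosen after seeing the data.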

Additional observations from a re-analysis of the deposited data

How the results depend on the processing

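Of 684 log2 fold changes of the 6 arms under alternatives, 568 kept direction and side of the threshold, 25 lost a call, 32 gained one and 59 changed sign, of which 1 had been called. The cause was not tested. The miR-25-3p call in siIGF2BP2 against siIGF2BP3 was kept in 14 of 21 alternatives, with values of −0.66 to −0.48 when a library was left out. In siIGF2BP1 against siIGF2BP2 it was kept in 14 of 20, and the miR-25-5p call in siIGF2BP1 against siC in 7 of 17.

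Members called rose from 1 to 2 in siIGF2BP2 against siIGF2BP3 with pseudocount 5, TMM, library total, a filter of 10, separate genomic copies, edgeR and DESeq2, with 26 to 42 of all miRNAs called. They were 0 in limma without trend, where 1 of all 889 was called, and with only these 2 groups (22 of 889). In siIGF2BP1 against siIGF2BP2 they were 2 with upper quartile scaling (173 of 889), 0 without trend (93) and 0 with only 2 groups (125). The 2 under upper quartile were miR-106b-3p (−0.74) and miR-93-5p (−0.65), both lower, and miR-25-3p was no longer called. In siIGF2BP1 against siIGF2BP3 members called rose from 0 to 1 with TMM, median of ratios, library total and a filter of 10 (118 to 135 of all miRNAs), to 2 with edgeR (124 of 335) and DESeq2 (119 of 500) and to 4 with upper quartile (222 of 889). Against siC, siIGF2BP3 gave 1 with library total (102 of 889) or a filter of 10 (77 of 364) and 4 with upper quartile (203 of 889), and siIGF2BP2 gave 1 with upper quartile (158 of 889). Left-out libraries gave 0 to 2 in siIGF2BP2 against siIGF2BP3, 0 to 1 in siIGF2BP1 against siIGF2BP2, in siIGF2BP1 against siIGF2BP3 and in siIGF2BP3 against siC, and 0 elsewhere.

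Replicate numbers were not taken to pair the samples. Correlations of deviations between same-numbered libraries were −0.157 to −0.0368 for siIGF2BP2 and siIGF2BP3 (3 pairs), −0.022 to 0.123 for siIGF2BP1 and siIGF2BP2 (2 pairs) and 0.0899 to 0.104 for siIGF2BP1 and siIGF2BP3 (2 pairs). With the replicate block, members called were 0 in siIGF2BP2 against siIGF2BP3, 0 in siIGF2BP1 against siIGF2BP2 and 0 in siIGF2BP1 against siIGF2BP3, where 1, 0 and 0 of all 889 miRNAs were called. Unblocked, the same libraries gave 0 members in each and 22, 7 and 61 of all 889. Under the block the adjusted p of miR-25-3p was 0.468 and 0.424 in the first 2.

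Scaling moved the median log2 fold change of abundant miRNAs (mean 10 or more). It was 0.16 in siIGF2BP1 against siC (TMM −0.04, median of ratios −0.07, upper quartile −0.05), and upper quartile scaling moved it from 0.04 to 0.52 in siIGF2BP2 against siC, from 0.08 to 0.67 in siIGF2BP3 against siC, from 0.16 to −0.53 in siIGF2BP1 against siIGF2BP2 and from 0.15 to −0.63 in siIGF2BP1 against siIGF2BP3. The upper quartile was taken over the 1196 miRNAs with a read in any library, including those with 0 reads in the library scaled. Of these, 659 to 810 had a read in siC and siIGF2BP1 libraries and 559 to 641 in siIGF2BP2 and siIGF2BP3 libraries. Signs changed as follows, with TMM, median of ratios, upper quartile, edgeR and DESeq2 in that order unless named. In siIGF2BP1 against siC, miR-106b-5p had −0.12, −0.15, −0.13, −0.19 and −0.17, miR-106b-3p −0.042, −0.070, −0.052, −0.096 and −0.072, and miR-93-3p −0.023, −0.050, −0.033, −0.095 and −0.067. In siIGF2BP2 against siC under upper quartile, miR-106b-5p had 0.40, miR-93-5p 0.38, miR-25-3p 0.21 and miR-25-5p 0.30. In siIGF2BP1 against siIGF2BP2, miR-93-5p had −0.032, −0.11, −0.65, −0.15 and −0.12, miR-106b-5p −0.53 (upper quartile), −0.052 (edgeR) and −0.014 (DESeq2), and miR-25-3p −0.080 (upper quartile). In siIGF2BP1 against siIGF2BP3, miR-25-3p had −0.068, −0.070, −0.76, −0.087 and −0.063 and miR-93-3p −0.069, −0.071, −0.73, −0.18 and −0.15. Under library total they had −0.032 and −0.034, and miR-25-5p had −0.29 under upper quartile.

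Leaving out a library changed the sign of small differences. With the 10 most abundant miRNAs left out of the total, the share difference between siIGF2BP2 and siIGF2BP3 was −1.12 points. The share difference of siIGF2BP1 and siC ranged from −0.032 to 0.207 points. The log2 ratio of miR-106b-3p to miR-106b-5p ranged from −0.041 to 0.20 (siIGF2BP1 against siC), −0.0045 to 0.50 (siIGF2BP2 against siC) and −0.22 to 0.28 (siIGF2BP2 against siIGF2BP3). In the same order that of miR-93-5p ranged from −0.28 to 0.019, −0.20 to 0.22 and −0.27 to 0.16, with −0.092 to 0.25 in siIGF2BP3 against siC. That of miR-25-3p ranged from −0.47 to 0.058 (siIGF2BP2 against siC), −0.18 to 0.19 (siIGF2BP3 against siC) and −0.47 to 0.051 (siIGF2BP2 against siIGF2BP3). Against siC, the log2 fold change of miR-106b-5p ranged from −0.12 to 0.29 (siIGF2BP1) and −0.28 to 0.12 (siIGF2BP2), of miR-93-5p from −0.14 to 0.038 (siIGF2BP1) and of miR-93-3p from −0.0093 to 0.36 (siIGF2BP1) and −0.060 to 0.40 (siIGF2BP3). In siIGF2BP1 against siIGF2BP2, miR-106b-5p ranged from −0.014 to 0.33, miR-106b-3p from −0.13 to 0.070 and miR-93-5p from −0.037 to 0.14. Against siIGF2BP3, miR-25-3p ranged from −0.11 to 0.22 and miR-93-3p from −0.23 to 0.20. Depth limits miR-93-3p (9 to 34 reads), miR-25-5p (43 to 211 reads) and miR-106b-5p (86 to 222 reads) most.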
